A study of Mus musculus with 9 samples.

Results

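Glycolysis and the pentose phosphate pathway were examined in activated mouse B cells with and without YY1, through 34 genes listed by symbol: glucose and lactate transporters, the enzymes of both routes, and a few of their regulators. All 34 were found among the 48795 genes of the count files, and 33 had enough counts to be tested. The cells were splenic follicular B cells, selected on CD23 from C57BL/6 mice with a floxed Yy1 gene (yy1 f/f); the sources used here give no age. The tatcre group (3 libraries) received TAT-CRE, a cell-permeable Cre recombinase that deletes floxed Yy1 in any cell it enters, and the mock group (3 libraries) received the mock treatment. Both groups carried the floxed alleles and both were activated in culture by LPS plus IL-4. Contact with the recombinase and loss of Yy1 fall on the same libraries and cannot be told apart. The series text divides the spleens of 3 mice over the treatments, but no label ties a library to a mouse; p-values therefore measure the spread between these libraries, which may be technical. The labels disagree on culture (72 hours and 10% serum for the series, 48 hours and 20% for each sample) and list TAT-CRE for mock samples too, so groups follow the titles.

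Glycolysis splits glucose into pyruvate, with an upper stage that spends ATP to phosphorylate and cleave the sugar and a lower stage that recovers ATP and NADH. Activated lymphocytes reduce much of the pyruvate to lactate and export it. The pentose phosphate pathway branches off at glucose 6-phosphate: its oxidative arm makes NADPH, and its non-oxidative arm interconverts sugars and supplies ribose 5-phosphate for nucleotides. In B cells, LPS and IL-4 are known to raise glucose uptake and glycolytic enzymes, with the transcription factors Myc and HIF-1 among the known regulators of these genes.

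Libraries held 22729187 to 28230727 gene counts. Yy1 RNA, the check of the labels, stood at 0.984, 1.5 and 2 CPM in tatcre libraries, against 100.3, 112 and 108 CPM in mock libraries (log2 fold change -6.15, SE 0.17, edgeR adjusted p = 1.7e-08). CPM are counts scaled to library size (TMM) but not to gene length, so levels are compared between groups and not between genes. The tested B cell markers Cd79a, Cd79b, Ms4a1, Cd22, Pax5, Fcer2a and Ebf1 summed to 3759 to 3883 CPM in tatcre and 4615 to 4949 CPM in mock cells; 3 of the 7 (Cd22, Pax5 and Fcer2a) were called lower and none higher. Of other lineages, 7 macrophage and monocyte markers summed to 11.9 to 15.4 CPM in tatcre and 22.1 to 27.6 CPM in mock cells, with Cd68 called lower and Cd14, C1qa and C1qb at 0 in all 6 libraries. The 6 dendritic cell markers summed to 106 to 113 CPM in tatcre and 120 to 134 CPM in mock cells, with Flt3 called lower. Markers of stroma and endothelium summed to 37.0 to 42.0 CPM in tatcre and 39.1 to 50.7 CPM in mock cells (Pecam1 lower, Col1a1 higher). Summed T cell markers reached at most 2.13 CPM in tatcre and 2.42 CPM in mock libraries, and those of NK cells, neutrophils, erythroid cells and platelets at most 1.12 CPM in tatcre and 1.06 CPM in mock libraries. The part of these shifts in the results was not tested. In bulk RNA, fewer cells of a type and less RNA per cell cannot be told apart.

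Most genes of the pathway were lower in tatcre cells. Of the 33 tested genes 24 were called lower in tatcre libraries, 1 (Pfkm) was called higher and 8 were not called (edgeR quasi-likelihood test, Benjamini-Hochberg adjustment over all 15546 tested genes, adjusted p under 0.05). That is 72.7% lower and 3.03% higher, beside 16.3% lower and 10.8% higher among all tested genes. The 34 genes were chosen with earlier results of these data known, so these shares describe the list only. Well-expressed genes were called lower more often in general, at 25.6% lower and 10.3% higher of the 3475 genes whose mean log2 CPM was 6 or more. Of the 16 pathway genes at that level 12 were lower and none higher, and of the 17 below it 12 were lower and 1 higher. The median log2 fold change, tatcre over mock, was -0.54 over the 33 genes, against 0.02 over all tested genes. The CPM of all 34 genes summed to 6467, 5934 and 6426 in the tatcre libraries, against 9144, 9541 and 8605 in the mock libraries, so every tatcre sum lay below every mock sum. Genes with many counts weigh most in these sums. Pkm alone had 1735, 1573 and 1789.9 CPM in tatcre libraries, against 2356, 2452 and 2181 CPM in mock libraries.

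For 28 of the 33 genes all 3 tatcre values lay below all 3 mock values, and for 2 above; among all tested genes these shares were 23.3% and 20.6%. Each of the 33 had at least 30 counts in every library, so none passed the filter through 1 group alone. Scaling moves the balance of calls over all genes: 60.2% of calls were lower with TMM, 48.5% with upper-quartile factors and 42% with library size alone (2614 higher, 1894 lower), where all tested genes had a median of 0.13 on the log2 scale. With upper-quartile factors and with library size alone 22 pathway genes were called lower, all of them among the 24, and 1 higher. The median log2 fold change of the 33 was then -0.48 and -0.44.

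**Figure D1:**
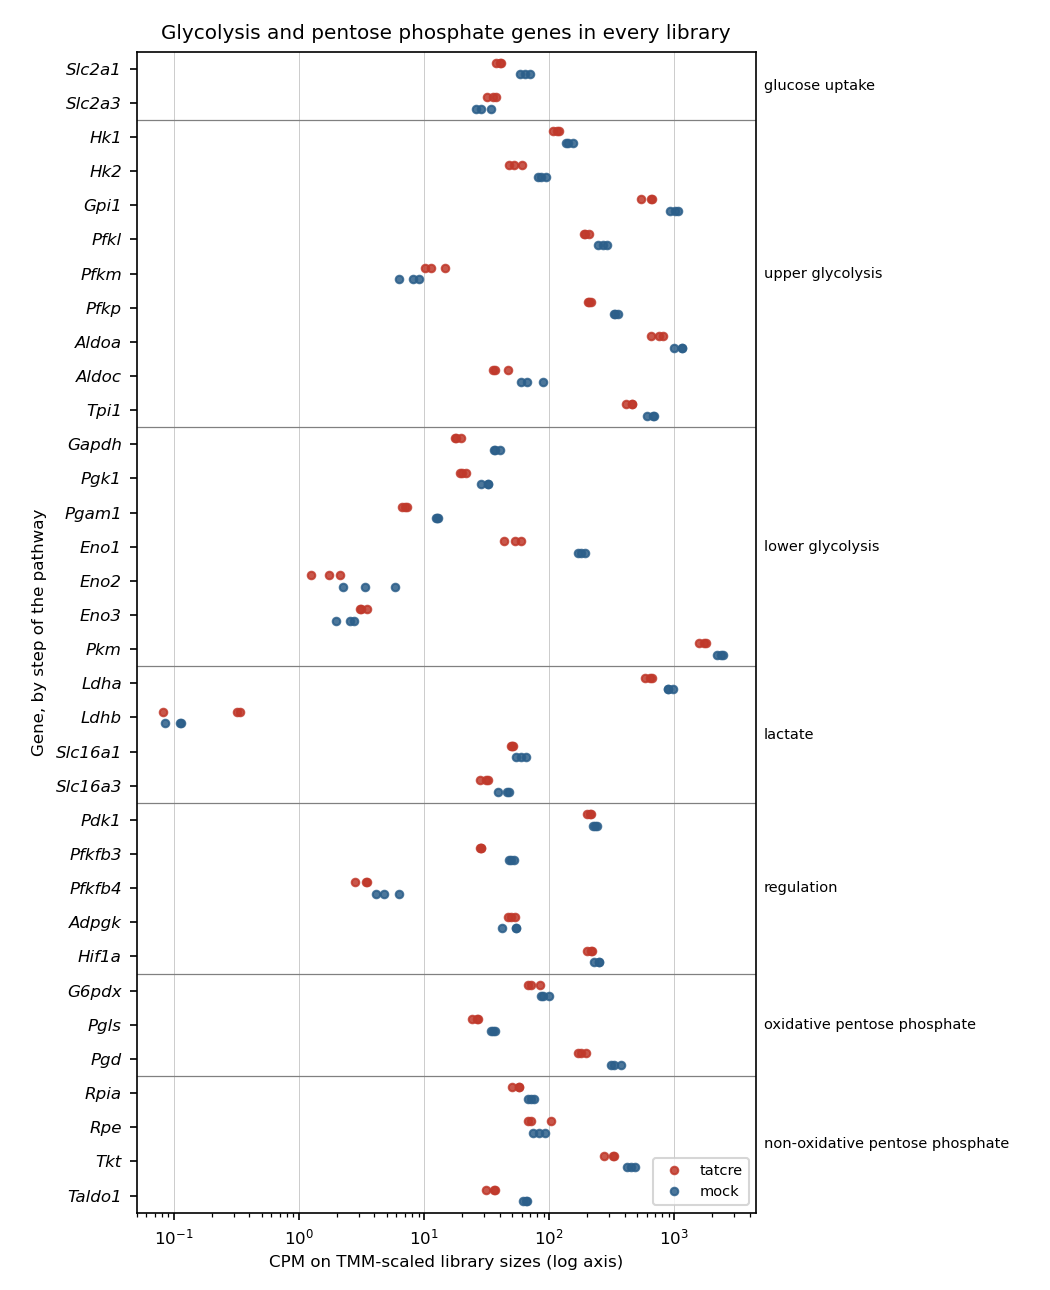
CPM of each of the 34 genes (rows, by step of the pathway; log axis) in every library, tatcre in red above mock in blue, 1 point per library. Most rows show 3 red points left of 3 blue ones; Pfkm and Eno3 show the opposite order, and Slc2a3, Adpgk, Rpe and Ldhb overlap.

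To show what lies at the start of these genes, 300-base RefSeq windows (GRCm38.p6, 250 bases before to 50 after a gene's start) were available for 33 of the 34, 47 windows in all, since some genes have several starts. They were searched on both strands for GATGGCG (a core of the YY1 motif), ACGTG (the core of the hypoxia response element, bound by HIF-1) and CACGTG (an E-box, the kind of site Myc binds; each CACGTG also holds ACGTG on both strands). The YY1 core was in 0 of the 47 windows, against 3.49% of all 32851 windows and 6.2% of those of tested genes. This says only that this exact string is absent from these windows. Other forms of the YY1 motif were not searched for. The Slc2a1 window below, for example, holds aatggcg, which is unmarked because it differs from GATGGCG at the leading base. ACGTG was in 20 of 47 windows (42.6%), against 19.6% of all windows and 25.4% of those of tested genes. CACGTG was in 5 of 47 (10.6%), against 7.15% and 9.95%. Counted by gene, 12 of the 24 genes called lower had ACGTG in any window (50%), against 29.4% of tested genes. CACGTG was in 2 of the 24 (8.33%), against 11.8% of tested genes. Over all 33 genes with a window, called lower or not, 17 had ACGTG (51.5%) and 5 had CACGTG (15.2%). Whether a match goes with a lower call was not tested. A match is a string of letters, not a bound site. The windows below are those of 4 genes called lower: Ldha, with matches at 3 separate places, Pgk1 with 2, Slc2a1 with 1, and Eno1, the gene with the largest fall, with none in any of its 3 windows. Each is on the + strand, read 5′ to 3′, and capitals mark matches to any of the 3 motifs.
Ldha, chr7:46845554-46845853: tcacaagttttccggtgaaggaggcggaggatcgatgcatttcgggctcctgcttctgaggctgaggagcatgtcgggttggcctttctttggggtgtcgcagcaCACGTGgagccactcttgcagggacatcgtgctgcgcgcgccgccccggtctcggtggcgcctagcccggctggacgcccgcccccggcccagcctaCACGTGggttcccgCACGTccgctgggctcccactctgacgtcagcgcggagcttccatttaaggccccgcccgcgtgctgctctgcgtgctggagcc
Pgk1, chrX:106186850-106187149: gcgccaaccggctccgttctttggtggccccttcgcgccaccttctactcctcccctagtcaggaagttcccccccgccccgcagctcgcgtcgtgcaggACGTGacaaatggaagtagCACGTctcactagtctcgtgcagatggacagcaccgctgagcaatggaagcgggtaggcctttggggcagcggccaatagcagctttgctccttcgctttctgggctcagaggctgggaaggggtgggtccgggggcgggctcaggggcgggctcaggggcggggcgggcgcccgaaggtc
Slc2a1, chr4:119108495-119108794: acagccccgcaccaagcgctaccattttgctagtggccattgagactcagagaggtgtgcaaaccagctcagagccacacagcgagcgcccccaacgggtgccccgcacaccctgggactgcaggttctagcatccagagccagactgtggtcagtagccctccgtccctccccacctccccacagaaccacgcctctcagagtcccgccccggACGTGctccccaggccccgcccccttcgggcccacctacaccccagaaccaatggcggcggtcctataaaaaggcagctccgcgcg
Eno1, chr4:150236947-150237246: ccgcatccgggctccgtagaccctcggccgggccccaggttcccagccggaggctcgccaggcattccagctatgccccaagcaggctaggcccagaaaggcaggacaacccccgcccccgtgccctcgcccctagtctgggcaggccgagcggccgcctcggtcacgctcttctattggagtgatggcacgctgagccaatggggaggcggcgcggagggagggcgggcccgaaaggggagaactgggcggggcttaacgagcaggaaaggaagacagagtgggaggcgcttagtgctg
In the Ldha window the first 2 places are E-boxes and the third is the ACGTG core on the opposite strand. Pfkm, the gene called higher, had ACGTG in 2 of its 4 windows and CACGTG in 1 of them.

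Glucose enters B cells through facilitative transporters. Of the 2 studied here 1 was called lower (50%, against 16.3% of all tested genes). Slc2a1 encodes GLUT1, the main transporter of activated lymphocytes, and had 40.3, 41 and 37.5 CPM in tatcre libraries, against 64.4, 70.7 and 58.6 CPM in mock libraries. It was 1.63-fold lower in tatcre cells (log2 fold change -0.71, SE 0.09, edgeR adjusted p = 0.00032), and the groups did not overlap. Slc2a3 encodes GLUT3, a transporter of high affinity, and had 35.6, 37.8 and 31.7 CPM in tatcre libraries, against 33.9, 25.8 and 28.7 CPM in mock libraries. Its groups overlapped through mock 1, and it was not called (edgeR adjusted p = 0.14, log2 fold change 0.25); without mock 1 it was called higher (log2 fold change 0.36, edgeR adjusted p = 0.0496).

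Hexokinase traps glucose in the cell as glucose 6-phosphate. Of its genes, the inducible Hk2 had 48.1, 52.4 and 60.1 CPM in tatcre libraries, against 81, 95 and 85.2 CPM in mock libraries, a 1.63-fold fall (log2 fold change -0.70, SE 0.10, edgeR adjusted p = 0.0006). Hk1, the form most tissues use, fell less in the fitted value, with 119, 107 and 115 CPM in tatcre and 155, 142 and 137 CPM in mock libraries (log2 fold change -0.35, SE 0.08, edgeR adjusted p = 0.0096); the difference between the 2 falls was not tested. Neither gene's groups overlapped. Gpi1, the isomerase that makes fructose 6-phosphate, had 666, 537 and 651 CPM in tatcre libraries, against 1015, 1063 and 922 CPM in mock libraries, a 1.62-fold fall (edgeR adjusted p = 0.00038).

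Phosphofructokinase catalyses the committed step, and its 3 subunit genes did not move together. Pfkp, the platelet-type subunit, fell 1.64-fold and had 214, 207 and 202 CPM in tatcre libraries, against 356, 329 and 336 CPM in mock libraries (log2 fold change -0.71, SE 0.07, edgeR adjusted p = 5.7e-05). Pfkl, the liver-type subunit, had 190.4, 194 and 209 CPM in tatcre libraries, against 247, 291 and 267 CPM in mock libraries, a 1.36-fold fall (edgeR adjusted p = 0.0028). All tatcre values of these 2 genes lay below all mock values. Pfkm, the muscle-type subunit, went the other way: it had 14.8, 10.2 and 11.3 CPM in tatcre libraries, against 9.14, 8.15 and 6.26 CPM in mock libraries, with no overlap (log2 fold change 0.62, SE 0.18, edgeR adjusted p = 0.026). The highest value was that of tatcre 1, and leaving it out ended the call (edgeR adjusted p = 0.115), as did leaving out mock 2 (0.0766) or mock 3 (0.0884). The span of Pfkm overlaps Senp1, a SUMO protease gene that was called higher too (92.7, 90.4 and 96.6 CPM in tatcre, 71.6, 79.1 and 75 CPM in mock libraries, edgeR adjusted p = 0.014), a call lost in at least 1 alternative; the sources used here do not say whether reads were counted by strand, and the part of Senp1 reads in the Pfkm counts was not tested.

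Aldolase and triose phosphate isomerase end the upper stage of glycolysis, and all 3 of their genes fell. Aldoa had 813, 651 and 749 CPM in tatcre libraries, against 1148, 1149 and 989.7 CPM in mock libraries, 1.48-fold lower (edgeR adjusted p = 0.0013). Aldoc, best known from brain, had 46.6, 36.7 and 35.2 CPM in tatcre libraries, against 89, 59.2 and 65.9 CPM in mock libraries (log2 fold change -0.85, SE 0.15, edgeR adjusted p = 0.0022); mock 1 was the high value. Tpi1, which interconverts the 2 triose phosphates, had 462, 411 and 455 CPM in tatcre libraries, against 671, 689 and 602 CPM in mock libraries, 1.48-fold lower (edgeR adjusted p = 0.00053). No tatcre value of the 3 genes reached a mock value.

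**Figure D2:**
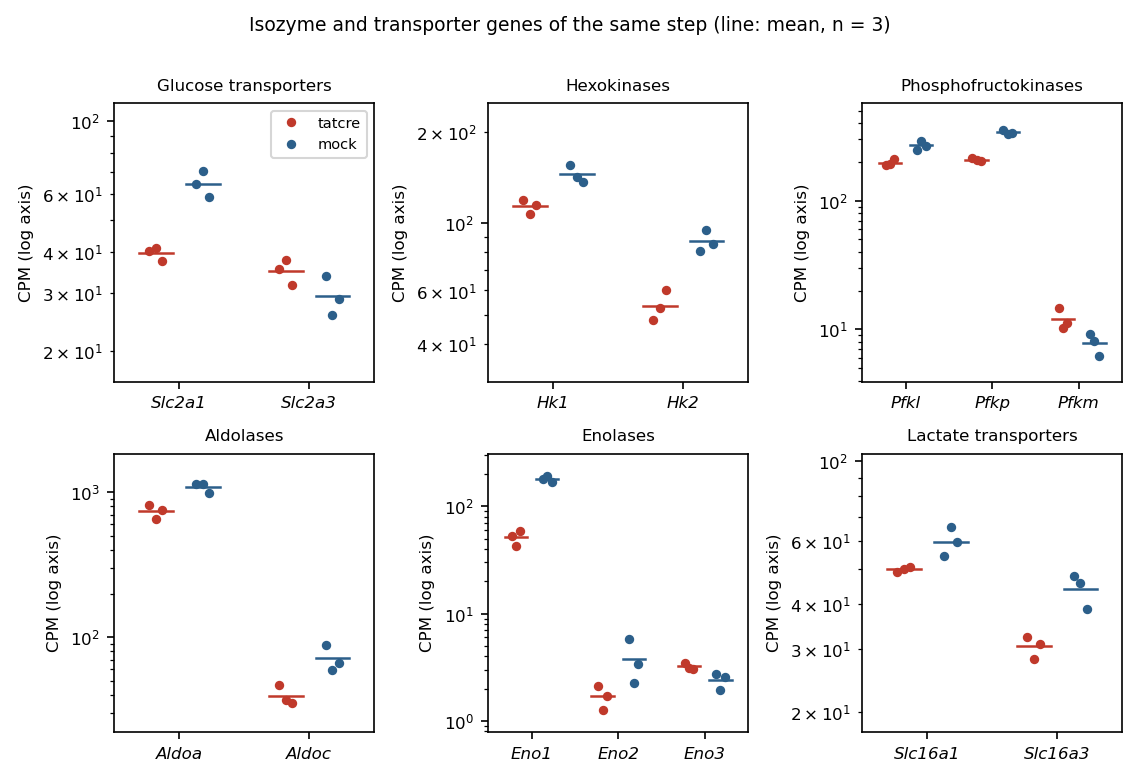
CPM (log axis) of genes that serve the same step, with tatcre libraries left (red) and mock libraries right (blue), 1 point per library and a line at the mean of 3. Pfkm, Eno3 and Slc2a3 have tatcre means above mock means while their partners lie below; CPM are not corrected for gene length, so only the groups of a gene compare.

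In the lower stage of glycolysis 6 of 7 genes fell (85.7%, against 16.3% of all tested genes). The largest fall of the 33 tested genes was that of an enolase. Eno1 encodes alpha-enolase (ENSMUSG00000063524, chromosome 4, 150236708 to 150248879 in GRCm38), which makes phosphoenolpyruvate, and had 53.1, 43.1 and 58.9 CPM in tatcre libraries, against 181, 192 and 169 CPM in mock libraries. The fall was 3.49-fold (log2 fold change -1.80, SE 0.11, edgeR adjusted p = 3.1e-06), with the highest tatcre value far under the lowest mock value. Eno2, the neuronal enolase gene, was low throughout, at 2.13, 1.25 and 1.72 CPM in tatcre and 5.82, 2.26 and 3.36 CPM in mock libraries, and was called lower (log2 fold change -1.16, SE 0.37, edgeR adjusted p = 0.037). Mock 1 was its high value, and without mock 1 the call ended (log2 fold change -0.72, edgeR adjusted p = 0.161), as it did without tatcre 2 or tatcre 3 (0.0889 and 0.0677). Scaling by upper quartile or by library size alone ended it too (edgeR adjusted p = 0.0517 and 0.0581). Eno3, the muscle enolase gene, had 3.48, 3.13 and 3.05 CPM in tatcre libraries, against 2.72, 1.96 and 2.56 CPM in mock libraries; the tatcre values were all above the mock values, but the gene was not called (log2 fold change 0.42, SE 0.24, edgeR adjusted p = 0.23).

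The other genes of this stage fell by less than Eno1. Gapdh, the dehydrogenase that makes NADH, had 17.8, 17.7 and 19.7 CPM in tatcre libraries, against 36.7, 40.7 and 35.9 CPM in mock libraries, a 2.05-fold fall (log2 fold change -1.03, SE 0.10, edgeR adjusted p = 3.6e-05). Gapdh is a common reference gene for RNA measurements. Its level here is uncertain, since the treatment of reads that also fit copies of the gene is not known. Pgk1, the first ATP-forming kinase, had 19.1, 21.6 and 19.9 CPM in tatcre libraries, against 32.5, 28.7 and 32.3 CPM in mock libraries, 1.54-fold lower (edgeR adjusted p = 0.001). Pgam1, the phosphoglycerate mutase, had 6.68, 7.06 and 7.3 CPM in tatcre libraries, against 12.8, 12.4 and 12.6 CPM in mock libraries (log2 fold change -0.85, SE 0.12, edgeR adjusted p = 0.00048). Pkm, the pyruvate kinase that ends glycolysis, had 1735, 1573 and 1789.9 CPM in tatcre libraries, against 2356, 2452 and 2181 CPM in mock libraries, 1.37-fold lower (edgeR adjusted p = 0.0012). In each of these 4 genes the groups were apart.

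Several of these genes have near-identical copies elsewhere in the genome, and no source used here says how reads that fit several places were treated, so their levels are uncertain. Of 11 copies looked up by symbol 7 were tested, and 6 of these were called lower, as their parents were. Eno1b, an Eno1 copy, had 14.9, 14.7 and 15.2 CPM in tatcre libraries, against 47, 53.1 and 48.6 CPM in mock libraries (log2 fold change -1.73, edgeR adjusted p = 1.0e-06). Pgam1-ps2, a pseudogene with more counts than Pgam1 in every library, had 21.7, 21.3 and 21.6 CPM in tatcre libraries, against 34.5, 38.6 and 37.9 CPM in mock libraries (log2 fold change -0.78, edgeR adjusted p = 0.00013). Pgk1-rs7, Ldha-ps2, Aldoart1 and Aldoart2 fell too, with log2 fold changes of -0.73, -0.78, -0.42 and -0.60 (the last lost its call in at least 1 alternative), while Gapdh-ps15, at 13 counts or fewer per library, missed the threshold (edgeR adjusted p = 0.59). When each parent and its copies were summed into 1 row, all 6 parents stayed called lower, with log2 fold changes of -1.79 for Eno1, -1.01 for Gapdh, -0.80 for Pgam1, -0.65 for Pgk1, -0.57 for Aldoa and -0.54 for Ldha. In any library the copies held at most 2.97% of the Gapdh sum, 1.86% of the Ldha sum and 4.22% of the Aldoa sum. Summing could therefore move these 3 little. The copies held 20.5 to 25.5% of the Eno1 sum, 20.2 to 29.3% for Pgk1 and 72.8 to 76.5% for Pgam1. The copies with counts here (Eno1b, Pgk1-rs7 and Pgam1-ps2) fell themselves, so summing could hardly end the calls of their parents either. Reads left out for fitting several places, if any were, are not in these sums. Other, unnamed copies were not looked for.

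Pyruvate leaves as lactate by way of lactate dehydrogenase and the monocarboxylate transporters. Ldha, the form that favours lactate production, had 642, 668 and 586 CPM in tatcre libraries, against 882, 974 and 896 CPM in mock libraries, 1.45-fold lower (log2 fold change -0.54, SE 0.08, edgeR adjusted p = 0.00051). Ldhb, the other subunit gene, had 2, 8 and 8 counts in tatcre libraries and 3, 3 and 2 counts in mock libraries and was not tested. The lactate exporter Slc16a3 (MCT4) had 32.5, 28.1 and 31 CPM in tatcre libraries, against 47.9, 45.9 and 38.8 CPM in mock libraries, 1.45-fold lower (edgeR adjusted p = 0.0034). Slc16a1 (MCT1), which carries lactate either way, had 49.2, 50.1 and 50.8 CPM in tatcre libraries, against 54.3, 65.5 and 59.4 CPM in mock libraries; the groups were apart by a small margin and the gene was not called (log2 fold change -0.26, SE 0.09, edgeR adjusted p = 0.054), though it was without the low-count filter (0.0312) and without mock 1 (0.0313). Bsg (basigin), the chaperone that brings both transporters to the cell surface, fell as well, with 275, 205 and 239 CPM in tatcre and 354, 337 and 314 CPM in mock libraries (edgeR adjusted p = 0.0058).

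Of the 5 regulators and side enzymes 2 were called lower, Pfkfb3 and Pfkfb4 (40%, against 16.3% of all tested genes). Pfkfb3 makes fructose 2,6-bisphosphate, the activator of phosphofructokinase, and had 28.2, 28.6 and 28.5 CPM in tatcre libraries, against 48, 52.3 and 49.6 CPM in mock libraries, a 1.76-fold fall (log2 fold change -0.81, SE 0.08, edgeR adjusted p = 5.8e-05). Its relative Pfkfb4 was low, at 3.4, 3.47 and 2.81 CPM in tatcre and 6.31, 4.74 and 4.09 CPM in mock libraries, and its call (edgeR adjusted p = 0.049) ended under RLE, upper-quartile and library-size scaling (edgeR adjusted p = 0.0522, 0.082 and 0.0997). It also ended with DESeq2 (0.0627) and without mock 1, mock 2, tatcre 1, tatcre 2 or tatcre 3 (0.0578 to 0.173). Hif1a, the oxygen-regulated subunit of HIF-1, had 200.0, 216 and 219.9 CPM in tatcre libraries, against 228, 251 and 251 CPM in mock libraries. Its tatcre values were all below its mock values, yet it was not called (log2 fold change -0.20, SE 0.08, edgeR adjusted p = 0.078), except without mock 1 (0.0493). Pdk1, a kinase that inhibits pyruvate dehydrogenase, had 215, 212 and 198 CPM in tatcre and 239, 232 and 223 CPM in mock libraries. It was not called (log2 fold change -0.15, SE 0.07, edgeR adjusted p = 0.15). Adpgk, an ADP-dependent glucokinase, overlapped fully, with 46.7, 53.3 and 49.5 CPM in tatcre and 41.8, 54.3 and 54.2 CPM in mock libraries (log2 fold change -0.01, SE 0.11, edgeR adjusted p = 0.97).

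In the oxidative arm of the pentose phosphate pathway 2 of 3 genes fell, Pgd and Pgls (66.7%, against 16.3% of all tested genes). Pgd, which makes NADPH from 6-phosphogluconate, had 179.5, 171 and 197 CPM in tatcre libraries, against 313, 373 and 327 CPM in mock libraries, a 1.85-fold fall (log2 fold change -0.89, SE 0.09, edgeR adjusted p = 5.8e-05). Pgls, the lactonase before it, had 26.6, 23.9 and 26.7 CPM in tatcre libraries, against 35.4, 37 and 34.4 CPM in mock libraries, 1.38-fold lower (edgeR adjusted p = 0.0033). G6pdx, the entry enzyme whose rate sets the flow into this arm, had 71.6, 67.3 and 84.7 CPM in tatcre libraries, against 88.6, 98.8 and 86.2 CPM in mock libraries. The groups were just apart, and the gene was not called (log2 fold change -0.29, SE 0.10, edgeR adjusted p = 0.054), but it was with DESeq2 (0.0322), without the low-count filter (0.00734), without mock 3 (0.0476) and without tatcre 3 (0.0149). Its span overlaps Ikbkg, an NF-kappa-B regulator that rose (44.1, 45.7 and 45.7 CPM in tatcre, 33.2, 29.4 and 33.3 CPM in mock libraries, edgeR adjusted p = 0.0018); the part of Ikbkg reads in the G6pdx counts was not tested.

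In the non-oxidative arm 3 of 4 genes fell (75%, against 16.3% of all tested genes). Taldo1, transaldolase, had 36.1, 31 and 36.8 CPM in tatcre libraries, against 61.6, 66.4 and 64.7 CPM in mock libraries, a 1.86-fold fall (log2 fold change -0.89, SE 0.09, edgeR adjusted p = 6.3e-05). Its partner Tkt, transketolase, had 322, 276 and 331 CPM in tatcre libraries, against 449, 484 and 421 CPM in mock libraries, 1.46-fold lower (edgeR adjusted p = 0.0012). Rpia, the isomerase that yields ribose 5-phosphate, had 57.7, 50.2 and 57.6 CPM in tatcre libraries, against 68.1, 76.2 and 71.3 CPM in mock libraries, 1.3-fold lower (edgeR adjusted p = 0.0089). All tatcre values of the 3 genes were under all mock values. Rpe, the epimerase of the same substrate, had 71.5, 104 and 67.2 CPM in tatcre libraries, against 82.8, 74.4 and 91.6 CPM in mock libraries; tatcre 2 held the highest value and the other tatcre libraries the lowest, and the gene was not called (log2 fold change -0.04, SE 0.15, edgeR adjusted p = 0.88).

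**Figure D3:**
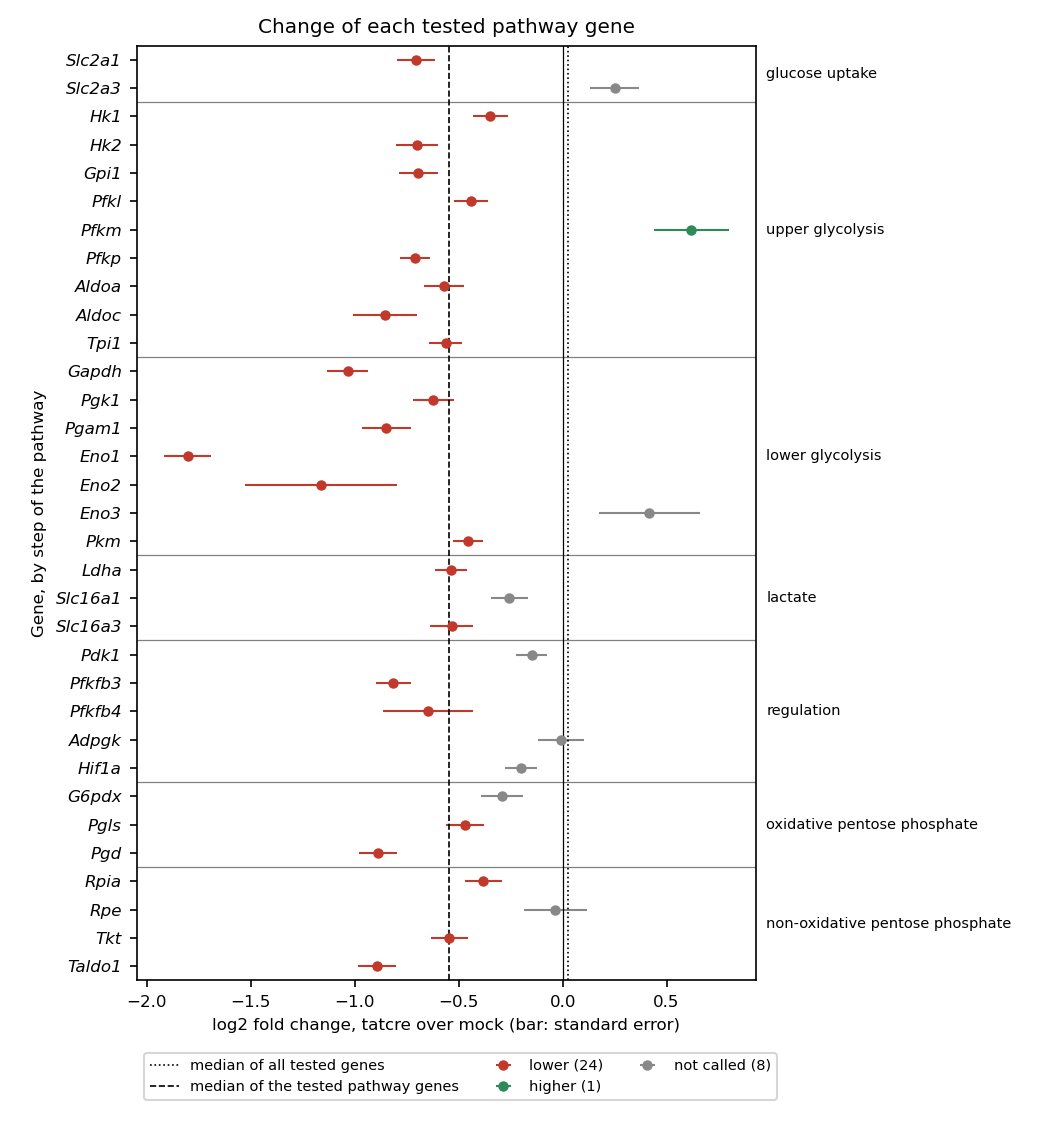
Log2 fold change, tatcre over mock, with its standard error for each of the 33 tested genes, by step; red marks genes called lower (24), green the 1 called higher and grey the 8 not called. The dashed line is the median of the 33 genes (-0.54) and the dotted line that of all tested genes (0.02); Eno1 lies farthest left at -1.80.

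Of the span of each of the 34 genes in GRCm38, 15 overlap another RefSeq gene and 19 do not. The overlapping protein-coding neighbours of genes called lower, Csnk1d (Slc16a3) and Pitrm1 (Pfkp), were not called themselves (edgeR adjusted p = 0.8 and 0.68). Spsb2, which overlaps Tpi1, had at most 0.298 CPM in any library. Pfn1, which overlaps Eno3, and Kansl1l, which overlaps Rpe, were not called either (edgeR adjusted p = 0.92 and 0.092).

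Genes beside the pathway were read from 6 further lists, 105 genes in all, of which 78 were tested: 31 were called lower and 6 higher (39.7% and 7.69%, against the 16.3% and 10.8% of all tested genes). These lists too were chosen with earlier results of these data known. Of 17 tested isozyme, glycogen and galactose genes 6 fell and 1 rose. The phosphoglucomutase genes Pgm2 and Pgm1, which link glycogen and galactose to glucose 6-phosphate, had 23, 23.6 and 22.1 CPM in tatcre against 49.6, 44.4 and 53.4 CPM in mock libraries and 58.5, 57.8 and 59.4 CPM in tatcre against 86.8, 82.5 and 81.8 CPM in mock libraries (edgeR adjusted p = 2.2e-05 and 0.00062). Also lower were Eno1b, Bpgm (log2 fold change -0.68), the glycogen phosphorylase gene Pygb (-0.49) and Galk1 (-0.45). Eno1b is the Eno1 copy described above, so its fall may not be separate from that of Eno1. With Eno1 and Eno1b summed, 30 genes of these lists were called lower in place of 31. The call of Galk1 ended in several alternatives, among them each left-out library except tatcre 1 (edgeR adjusted p = 0.0729 to 0.132). Gpd2, the mitochondrial glycerol 3-phosphate dehydrogenase that passes glycolytic electrons to the respiratory chain, was the 1 that rose: it had 45.3, 42.1 and 46.4 CPM in tatcre libraries, against 24.5, 24.7 and 29.6 CPM in mock libraries (log2 fold change 0.76, SE 0.10, edgeR adjusted p = 0.00033). Of 6 other tested transporter genes Slc2a6 and Bsg fell, and Slc2a9, which carries urate, rose (log2 fold change 0.56, edgeR adjusted p = 0.018); the calls of Slc2a6 and Slc2a9 each ended in at least 1 alternative.

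Of 9 tested genes around ribose 5-phosphate 4 fell and none rose. Prps1, which makes the activated ribose used for nucleotides, had 46.5, 48.2 and 49.6 CPM in tatcre libraries, against 64.2, 69.1 and 66.3 CPM in mock libraries (log2 fold change -0.47, edgeR adjusted p = 0.0014). Prpsap2, a protein associated with that synthase, fell 2.57-fold, with 4.84, 5.09 and 4.65 CPM in tatcre and 13.3, 12 and 12.1 CPM in mock libraries (edgeR adjusted p = 3.9e-05). Ribokinase (Rbks) and deoxyribose phosphate aldolase (Dera) were the others (log2 fold changes -0.99 and -0.45). In the hexosamine and serine branches 2 of 10 tested genes fell, Mthfd2 and Psph (log2 fold changes -0.48 and -0.31), and 2 rose, both of the hexosamine branch: Gfpt1, its first enzyme, and Pgm3 (log2 fold changes 0.39 and 0.55). Psph and Gfpt1 each lost the call in at least 1 alternative. Each share was 20%, against 16.3% lower and 10.8% higher among all tested genes.

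Of 19 tested regulators 4 fell, 1 rose and 14 were not called, a share of falls (21.1%) close to that of all tested genes. Myc, a known activator of glycolytic genes, had 188, 157 and 193 CPM in tatcre libraries, against 278, 339.5 and 295 CPM in mock libraries, with no overlap (log2 fold change -0.76, SE 0.10, edgeR adjusted p = 0.00037). The prolyl hydroxylase genes Egln1 and Egln3, whose products mark HIF-1 alpha for destruction, fell by 0.36 and 0.38 on the log2 scale (edgeR adjusted p = 0.0067 and 0.047). The groups of Egln3 overlapped. Its call ended in several alternatives, among them RLE, upper-quartile and library-size scaling (edgeR adjusted p = 0.051, 0.108 and 0.15). Hif3a was low and fell, with 2.87, 2.76 and 2 CPM in tatcre and 4.99, 5.19 and 5.32 CPM in mock libraries. Arnt, which encodes the constant partner of HIF-1 alpha, rose, with 119, 120.3 and 114 CPM in tatcre and 95.4, 87 and 91 CPM in mock libraries (log2 fold change 0.37, edgeR adjusted p = 0.0049).

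Of 18 tested genes listed as HIF-1 targets outside glycolysis 13 fell (72.2%), 1 rose and 4 were not called. Of all tested genes 16.3% fell, and of the well-expressed ones 25.6%. The list was chosen with earlier results of these data known, so its share describes the list and is no independent support. Pfkfb1, among those not called, is also in the regulator list and acts on glycolysis itself. Ndrg1, a stress-regulated gene, fell 3.61-fold, with 3.81, 3.76 and 3.69 CPM in tatcre libraries, against 15.3, 11.1 and 14.3 CPM in mock libraries (edgeR adjusted p = 1.8e-05). Vegfa, the angiogenic growth factor gene, had 79.4, 69.9 and 77.4 CPM in tatcre libraries, against 117, 112 and 114 CPM in mock libraries (log2 fold change -0.60, edgeR adjusted p = 0.00036). Bnip3l, a mitophagy receptor, had 147, 159 and 121 CPM in tatcre libraries, against 257, 207 and 272 CPM in mock libraries (log2 fold change -0.79, edgeR adjusted p = 0.00091). The collagen prolyl hydroxylase genes P4ha2 and P4ha1 fell by 1.80 and 0.48, Stc2 by 1.63, Adm by 0.66 and Higd1a by 0.59 on the log2 scale. Smaller falls were those of Ero1l (-0.51), Fam162a (-0.48), Ddit4 (-0.42), Mif (-0.38) and Ankrd37 (-0.31), as log2 fold changes. Ddit4 lost its call with library size alone (edgeR adjusted p = 0.0528). Mif lost it with upper-quartile factors, library size alone, the replicate term and without mock 1, mock 2 or tatcre 2 (edgeR adjusted p = 0.0616 to 0.128). Among the alternatives Ankrd37 kept its call only without tatcre 2 (edgeR adjusted p = 0.0246). Kdm3a, a histone demethylase gene, rose, with 205, 226 and 202 CPM in tatcre and 166, 154 and 170.2 CPM in mock libraries (edgeR adjusted p = 0.0062).

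**Figure D4:**
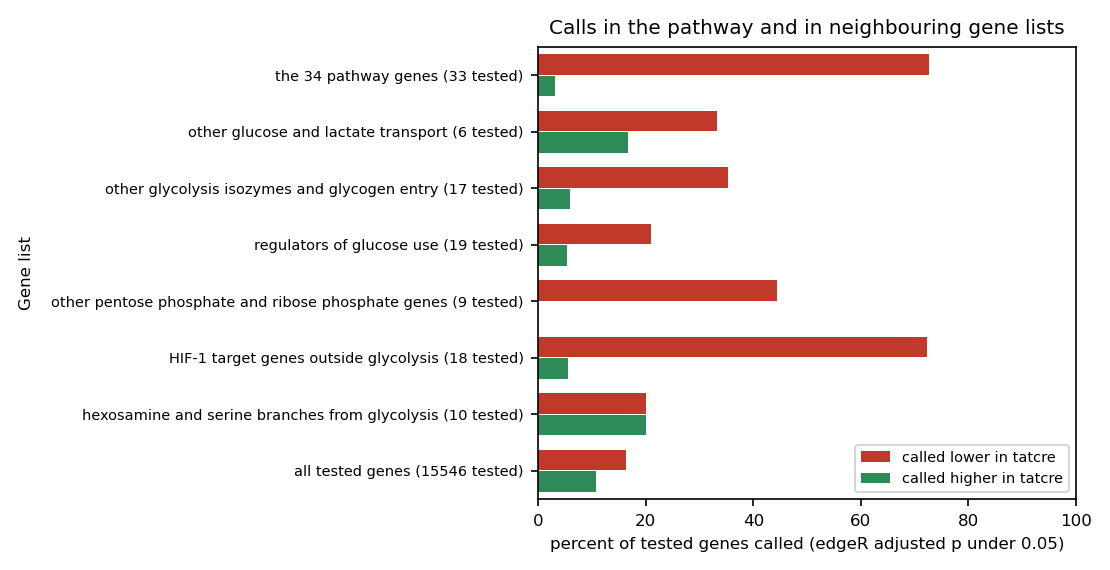
Percent of the tested genes of each list called lower (red) or higher (green) in tatcre cells, with the number tested beside each name and all tested genes at the bottom. The 34 pathway genes (72.7% lower) and the HIF-1 targets outside glycolysis (72.2% lower) have the longest red bars. The regulator and branch lists lie near the 16.3% of all genes. All lists were chosen with earlier results of these data known.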

How the data were processed

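RNA-seq was analysed in 3 tatcre and 3 mock libraries. The values are raw gene counts deposited by the authors. Trimmomatic, TopHat2, SAMtools and HTSeq, with build mm10, appear in the submitters' processing notes. Per the labels' protocols the library kit was a stranded one. The sources used here give no annotation, strand setting or rule for multiply placed reads, so overlapping genes and near-identical copies can share counts. The YY1 ChIP-seq peak lists were not used, because their coordinates reach past the last genes of GRCm38 chromosomes.

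Symbols came from a name table that matched 48349 of 48795 gene IDs. Genes were kept with filterByExpr (minimum count 10, minimum total 15), scaled by TMM and tested with edgeR 4.0.16 (quasi-likelihood) in R 4.3.3, tatcre against mock, and p-values adjusted by Benjamini-Hochberg (threshold 0.05). CPM use TMM-scaled library sizes. The standard error is the absolute log2 fold change over the square root of F. At this depth 3 counts equal 0.111 to 0.128 CPM. Replicates differed beyond sampling noise (chi-square per degree of freedom at least 8.1). The test was also run on simulated counts. Its outcome there is not reported here, so it is no support for these results. DESeq2 1.42.0, other scalings, no filter, a replicate term, left-out libraries and summed copies were the alternatives. All 34 genes are named, and from the other lists the called genes; a few listed genes are not reported here and were left out of the lists. Members and lists were chosen with earlier results of these data known.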

Additional observations from a re-analysis of the deposited data

How the results depend on the processing

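Of the 24 genes called lower, 22 stayed called lower in every alternative run for them (RLE, upper-quartile and library-size scaling, no low-count filter, DESeq2, the replicate term, each library left out, copies summed); Eno2 and Pfkfb4 did not, both being lost with upper-quartile factors and with library size alone. The number called lower ran from 22 to 26 over all alternatives and from 22 to 25 with a library left out. With a library left out, 0 to 2 were called higher: 2 without mock 1 (Pfkm and Slc2a3) and 0 without mock 2, mock 3 or tatcre 1. Genes of the other lists called higher numbered 11 with library size alone and 4 to 7 with a library left out. Over all tested genes 2614 were called higher with library size alone and 998 to 1681 with a library left out (998 without mock 2, 1002 without tatcre 1). Adpgk and Rpe, not called in any alternative, changed the sign of their log2 fold change: Adpgk was at 0.0051 with RLE, 0.064 with upper-quartile factors, 0.10 with library size alone, 0.0050 with DESeq2 and -0.13 to 0.048 with a library left out, and Rpe at 0.038 with upper-quartile factors, 0.073 with library size alone and -0.26 to 0.074 with a library left out. Of 44 other named genes 33 kept their call in every alternative; Aldoart2, Ankrd37, Ddit4, Egln3, Galk1, Gfpt1, Mif, Psph, Senp1, Slc2a6 and Slc2a9 lost it in at least 1. The cause of these changes was not tested.

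With the replicate number as a block 23 of the pathway genes were called lower and 1 higher, Pfkfb4 being lost (edgeR adjusted p = 0.0593), and Adpgk was at 0.00032. Over all genes the block gave 2108 lower and 1313 higher calls. Deviations from the group means correlated at 0.056, -0.032 and 0.226 between libraries of like number, not all above 0.1, so the numbers are not taken as pairs. Between libraries of unlike number they ran from -0.326 (mock 1, tatcre 3) to 0.248 (mock 1, tatcre 2). A pairing in another order was not tested.

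Depth limits Ldhb, at 2 to 8 counts, which was not tested. Eno2, Eno3 and Pfkfb4 rest on 30 to 167 counts per library and have the widest standard errors.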
